A study of Oryza sativa with 18 samples.

Results

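Among the open chromatin regions of rice leaf, 741 were narrow and yet reached the highest peak value in the list. They were chosen by 2 deposited values, a peak value of 18 and a width of at most 250 bp, on chromosomes 1 to 12. They made up 2.48% of the 29831 regions on these chromosomes and 29978 regions were listed in all. Both values that chose them are given below as a description and are not tested.

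Open chromatin is DNA that is free enough of nucleosomes for proteins to reach it. In ATAC-seq the Tn5 transposase cuts such DNA and joins sequencing adapters to it, so that read ends gather there. In plants much of it lies close to genes, where transcription factors bind, and nucleosomes on either side usually limit how wide an accessible site is. Organelle DNA has no nucleosomes and is also cut by the enzyme.

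The libraries came from rice plants (Oryza sativa, variety Azucena) grown in liquid culture, of which the second leaf was taken at an age of 14 days. All plants were grown with 12 h of light. There were 18 libraries in 9 groups of 2. Controls stayed at 30 °C in liquid medium and were taken at 0.5, 2 and 4 h, and heated plants were taken at the same times after a move to 40 °C. Heat recovery plants had 2 h at 40 °C and then 2 h back at 30 °C. Dehydrated plants had their roots in air for 2 h, and dehydration recovery plants had 1.5 h in air and then 2 h in liquid. The label of the dehydration recovery group gives 4 h, which differs from these times. A single list of regions covers the whole series and names no library, so the regions cannot be followed across heat, dehydration or recovery, the depth per library is unknown, and there is no spread between plants. No gene or sequence was assigned to a region, because the genome build of the list, not given in the sources used here, could not be matched to a reference. Positions are 1-based and as deposited.

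The peak value is a whole number from 10 to 18 that the file does not define, and its highest value equals the number of libraries. The peak position is the base within a region at which the file places the peak, counted from 1 at the lower coordinate. Narrow regions of peak value 18 were set beside 10960 regions of the same width limit with a peak value of 13 to 15, and beside 5576 regions of peak value 18 that were wider than 250 bp and up to 1000 bp. These are named the narrow lower-peak regions and the wider top-peak regions.

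Most of the narrow top-peak regions were close to the width limit, and 438 of the 741 were over 200 bp wide. The widths had a median of 213 bp and quartiles of 176 and 235 bp, against 124 bp (quartiles 85 and 173 bp) for the narrow lower-peak regions. From 226 to 250 bp there were 270 of them, or 16.2% of all regions of that width. From 126 to 150 bp there were 38, which was 1.91% of that width class. A width of up to 250 bp was held by 1266 regions of peak value 17, the class just outside the rule on the other side.

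The limit of 250 bp does not fall at a break in the list. The 63 regions less than 5 bp under the limit or at it had a median gap to the nearest region of 1195 bp, and 44.4% of them lay in the outer 25% of the chromosome at either end. The 65 top-peak regions up to 5 bp wider than the limit had a median gap of 1149 bp, and 44.6% lay there. None of these 128 had its peak in the first 10 bp.

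At the smallest width the number of regions did not fall steadily with the peak value. Of the regions exactly 72 bp wide, the least width in the list, 613 had a peak value of 13, 249 of 14, 64 of 15, 14 of 16 and 4 of 17. There were then 25 at 18. In the next class, from 73 to 100 bp, the number fell at each step from 1645 at 13 to 38 at 17 and 22 at 18. In both classes from 101 to 150 bp it was lower at 18 than at 17 as well.

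**Figure D1:**
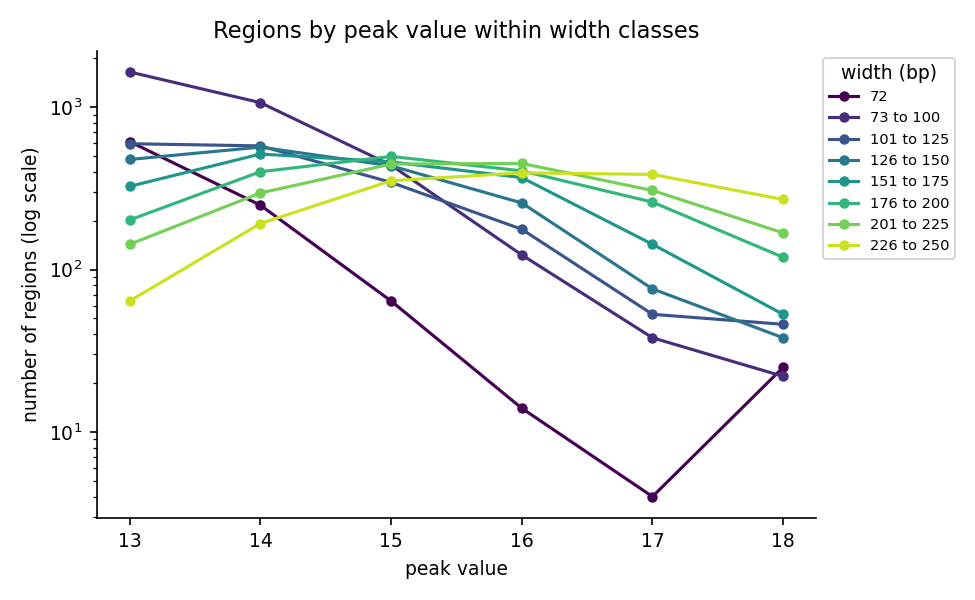
Number of regions on chromosomes 1 to 12 (log scale) by peak value, with 1 line for each width class in bp. The line for 72 bp falls to 4 regions at a peak value of 17 and rises to 25 at 18, whereas the line for 226 to 250 bp lies highest at 16 and 17.

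Nearly all of the 72 bp regions of peak value 18 had the peak at the first base, 24 of the 25 (96%). Among 72 bp regions this share was high at both ends of the peak values. It was 10 of 10 at 10, 18.3% at 11 and 3.43% at 12, lay at 2.28% at 13 and 2.41% at 14, and was 12.5% at 15, 35.7% (5 of 14) at 16 and 50% (2 of 4) at 17. The exception among the 25 lay on chromosome 3 from 34489114 to 34489185 and had its peak at base 51. The 25 were spread over 11 chromosomes. Their nearest neighbours lay 73 to 151138 bp away with a median of 1982 bp, and 6 had a neighbour under 1000 bp. The first 5 in order of chromosome and position were 2 on chromosome 2, from 813429 to 813500 and from 14263078 to 14263149, and 3 on chromosome 3 that start at 7578937, 7956396 and 19976396.

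The narrow top-peak regions were found on every chromosome, from 37 on chromosome 11 to 94 on chromosome 2. Their share of a chromosome's regions was 2.63% ± 0.73 (SD, n = 12 chromosomes). Chromosome 3 had the lowest share (1.52%) and chromosome 12 the highest (4.47%), followed by chromosome 10 (3.35%). Of all regions of peak value 18 they made up 11.5% ± 2.45 (SD, n = 12), with 16.9% on chromosome 12 and 7.61% on chromosome 3. The median width was 164 bp on chromosome 10 and 192.5 bp on chromosome 12, and between 197.5 and 225 bp on the others.

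Along the chromosomes they lay less often in the outer parts than either comparison class did, mainly at the end with the higher coordinates. The outer 25% at each end held 339 of the 741, or 45.7%. The 25% at the lower coordinates held 24.8% of them, against 25.1% of narrow lower-peak and 25.2% of wider top-peak regions. The 25% at the higher coordinates held 20.9%, against 32.8% and 30.6%. The tests below take both ends together, and neither end was tested alone. Over the chromosomes the share was 45.0% ± 8.12, against 57.9% ± 4.65 for the narrow lower-peak regions (SD, n = 12). The difference was -12.9 percentage points ± 8.94 (SD) and was below 0 on 11 of 12 chromosomes (two-sided exact sign-flip permutation test over chromosomes, adjusted p = 0.0039). Wider top-peak regions had 56.1% ± 6.03 in the outer parts, and the difference from them was -11.0 points ± 10.1, again below 0 on 11 of 12 (by the same exact sign-flip permutation test, adjusted p = 0.0039). These p-values count chromosomes as units. Chromosomes are parts of 1 pooled list, and their spread is not that between plants.

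The difference was largest on chromosome 8, where 29.3% of the narrow top-peak regions and 63.8% of the narrow lower-peak regions lay in the outer parts. On chromosome 10 the shares were 36.5% and 58.3%. Chromosome 1 was the exception, with 57.6% and 56.8%. Taken over all chromosomes, the stretch from 20 to 40% of the length held 24.2% of the narrow top-peak regions and the stretch from 40 to 60% held 24.0%, against 15.5% and 15.2% of the narrow lower-peak regions. The last 20% of the length, at the higher coordinates, held 15.5% against 26.7%. The first 20% held similar shares, 19.4% and 20.7%.

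**Figure D2:**
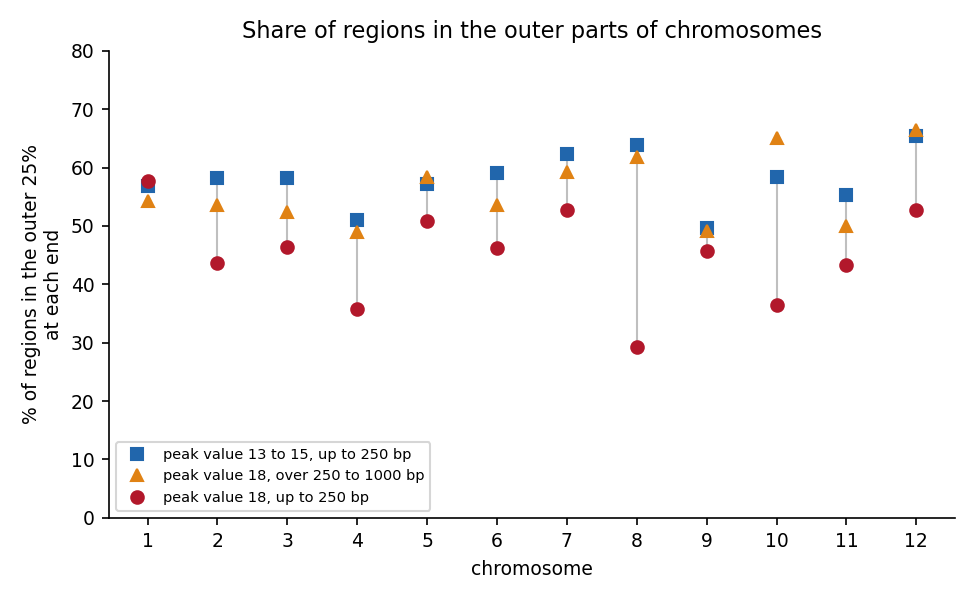
Share of regions in the outer 25% of the chromosome at each end, in percent, by chromosome. Circles are narrow regions of peak value 18, squares narrow regions of peak value 13 to 15 and triangles wider regions of peak value 18, with a line joining circle and square. The circle lies below both other marks on 11 chromosomes and above them on chromosome 1.

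The stretches around them also held fewer open regions. The median number of other regions in the same 1 Mb was 79.5 ± 19.3 over the chromosomes, against 90.9 ± 14.6 for narrow lower-peak regions and 89.8 ± 16.01 for wider top-peak regions (SD, n = 12). The differences were -11.4 ± 11.6 (exact sign-flip permutation test, adjusted p = 0.0117) and -10.2 ± 13.3 regions (exact sign-flip permutation test, adjusted p = 0.0127), each negative on 10 of 12 chromosomes. With bins of 500 kb both had an adjusted p of 0.0521 (exact sign-flip permutation test) and no longer passed the threshold of 0.05. This measure and the share in the outer parts both follow the density of the list along a chromosome, so they are not separate results.

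At a limit of 1000 bp the picture was the opposite, since somewhat more of them had another region close by. A neighbour under 1000 bp from edge to edge was present for 374 of the 741, or 50.5%. At the shortest distances there was no such excess. A neighbour under 150 bp was present for 83 (11.2%), against 13.5% of narrow lower-peak and 12.3% of wider top-peak regions, which was not tested. Over the chromosomes the share was 50.8% ± 6.81, against 44.9% ± 2.86 for narrow lower-peak regions and 45.0% ± 2.97 for wider top-peak regions (SD, n = 12). The difference was 5.90 points ± 7.995 from the former, above 0 on 9 of 12 (two-sided exact sign-flip permutation test, adjusted p = 0.0339). It was 5.81 points ± 7.31 from the latter, above 0 on 10 of 12 (two-sided exact sign-flip permutation test, adjusted p = 0.0273). Neither passed once the 8 fullest 1 Mb bins described below were left out (3.54 and 3.40 points, exact sign-flip permutation test, adjusted p = 0.102 for both), and leaving out chromosome 3, 6, 10, 11 or 12 alone also ended both.

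The share with a close neighbour depended on the width. Among narrow lower-peak regions it was 54.0% from 72 to 100 bp, 44.3% from 101 to 150 bp, 36.8% from 151 to 200 bp and 38.8% from 201 to 250 bp. Among narrow top-peak regions it was 46.8% (22 of 47) from 72 to 100 bp, 72.6% (61 of 84) from 101 to 150 bp, 56.4% (97 of 172) from 151 to 200 bp and 44.3% (194 of 438) from 201 to 250 bp. The narrowest of these classes joined unlike regions, with 24% (6 of 25) at 72 bp and 72.7% (16 of 22) from 73 to 100 bp. From 73 to 100 bp the share at peak value 17 was 73.7%. From 101 to 150 bp the share rose with each peak value, from 44.3% at 13 to 15 to 53.2% at 16 and 60.5% at 17. Narrow lower-peak regions were also weighted to equal widths in classes of 25 bp, which did not keep 72 bp regions apart from slightly wider ones. The difference was then 10.2 points ± 8.54 and above 0 on 11 of 12 (two-sided exact sign-flip permutation test, p = 0.0039 adjusted over 4 tests). Without weighting and with the limit at 300 bp, the difference was 2.81 points and did not pass (exact sign-flip permutation test, adjusted p = 0.108).

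**Figure D3:**
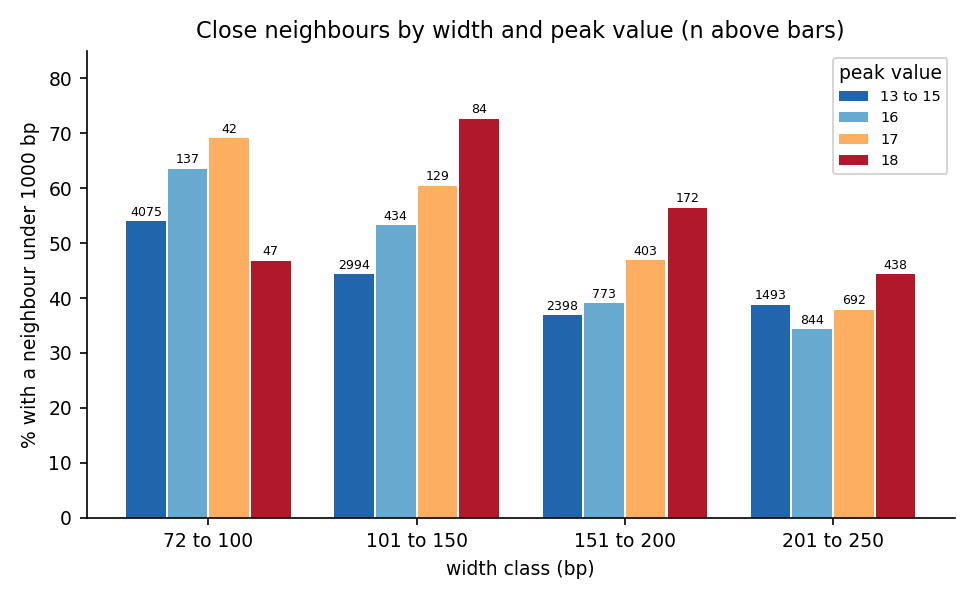
Share of regions with another region under 1000 bp away, in percent, by width class and peak value, with the number of regions above each bar. The bar for peak value 18 is the tallest of its width class from 101 bp upward (72.6% from 101 to 150 bp) and the lowest from 72 to 100 bp (46.8%). That lowest bar joins 25 regions of 72 bp (24%) and 22 regions of 73 to 100 bp (72.7%).

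The median gap to the nearest neighbour was 1130 bp ± 395 over the chromosomes, against 1372 bp ± 224 for narrow lower-peak regions and 1310 bp ± 199 for wider top-peak regions (SD, n = 12). The log2 ratios of -0.34 ± 0.56 and -0.27 ± 0.55 did not pass the test (exact sign-flip permutation test, adjusted p = 0.0731 and 0.113). At equal widths the first ratio was -0.73 and passed (exact sign-flip permutation test, p = 0.0039 adjusted over 4 tests). Chromosome 10 had the smallest median gap, 626 bp against 1529 bp for narrow lower-peak regions. On chromosome 7 the order was the other way, with 1949 bp against 1285 bp.

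At the far end, 69 of the 741 (9.31%) had no region within 16000 bp, against 6.51% of the narrow lower-peak regions and 5.99% of the wider top-peak regions. The most isolated lay on chromosome 12 from 15509984 to 15510186, with its nearest neighbour 165731 bp away. A 72 bp region on chromosome 3, from 19976396 to 19976467, followed at 151138 bp. The others among the farthest 5 were all on chromosome 4. The region from 1970615 to 1970853 was 112706 bp from its neighbour, that from 6398849 to 6399079 was 82615 bp away and that from 17176233 to 17176471 was 78835 bp away. No test was made of the share with distant neighbours.

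The closest neighbours were within 76 bp. A 72 bp region on chromosome 5 from 12962364 to 12962435 lay 73 bp from a region 1107 bp wide that also had a peak value of 18. Gaps of 74 bp were found beside a region on chromosome 1 from 14705893 to 14706123 and beside another on chromosome 3 from 30814612 to 30814803. On chromosome 10 the region from 10878369 to 10878532 had a gap of 75 bp, and that from 4966075 to 4966316 a gap of 76 bp.

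The regions next to them in the list were often of the highest peak value too. Of their 1482 neighbours on either side, 457 (30.8%) had a peak value of 18, against 22.1% of the neighbours of narrow lower-peak regions and 23.8% of those of wider top-peak regions. The share was higher than in both classes on 11 of 12 chromosomes, at 30.5% ± 5.53 against 22.5% ± 1.98 and 23.8% ± 2.76 (SD, n = 12). Other narrow top-peak regions were 138 (9.31%) of their neighbours, against 2.30% and 2.71% in the comparison classes and 2.48% in the whole list. Regions over 1000 bp wide made up 1.15% of their neighbours, against 1.11% and 1.04%. Peak values were used to choose the regions, so no test was made of these shares.

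Their number varied along the chromosomes. Of 366 whole 1 Mb bins, 84 held none of them, 223 held 1 to 3, 51 held 4 to 7 and 8 held at least 8, around a mean of 2.00 ± 2.16 (SD between bins). Those 8 bins held 93 of the 732 that lay in whole bins, or 12.7%. They were picked for holding the most, so this share was not compared with other classes. The fullest bin was on chromosome 10 from 10000001 to 11000000, where 20 of 89 regions (22.5%) were of this kind. It was followed by a bin on chromosome 2 from 14000001 to 15000000 with 14 of 49 (28.6%) and a bin on chromosome 8 from 9000001 to 10000000 with 12 of 71 (16.9%). The other 5 bins, with 8 to 11 each, were 3 on chromosome 12 and 1 each on chromosomes 1 and 7.

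The largest group in which each lay under 10000 bp from the next held 11 within 9124 bp of chromosome 10, from 10869951 to 10879074. That stretch held 15 regions of any kind, and of the 4 that were not among these 11, 1 had a peak value of 18 and 3 had 16. The 11 ranged from 72 to 165 bp in width with a median of 119 bp. Their peak positions ran from base 1 to base 34, with a median of 6. The gaps inside the stretch ran from 75 to 2247 bp.

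**Figure D4:**
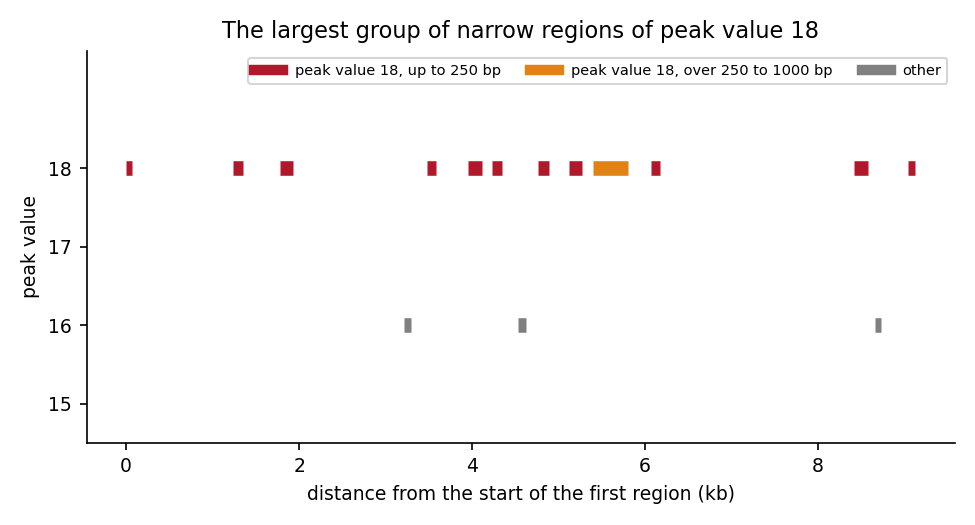
Regions in the largest group, drawn to scale by their distance in kb from the start of the first region and by peak value. Of the 15 regions 12 lie at a peak value of 18, of which 11 are up to 250 bp wide and 1 is 398 bp wide, and 3 lie at 16.

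A group of 10 followed on chromosome 2, within 30834 bp from 14247330 to 14278163. All regions of any kind there were narrow, 10 at a peak value of 18 and the other 2 at 13 and 15. The last 6 of the 10, from 14257155 to 14278163, followed each other with no other region between them, the longest such run in the list. Of the 10, 9 had the peak in the first 6 bp, and the exception, from 14269542 to 14269774, was also the widest at 233 bp. In this group 2 pairs lay 97 bp apart.

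There were 2 further groups of at least 5, with 7 regions between 5630324 and 5646681 of chromosome 12 and 5 between 10904263 and 10920931 of chromosome 10. Runs of 4 narrow top-peak regions in a row lay on chromosomes 1, 4, 8 and 12. The run of chromosome 1 spanned 33573439 to 33578600, and that of chromosome 8 spanned 9279762 to 9282413. In all, 606 of the 741 (81.8%) had no other of their kind within 10000 bp.

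In a minority of them the peak lay at the lower edge. In 99 (13.4%) the peak lay in the first 10 bp and in 51 (6.88%) at the first base. The shares were 4.80% and 0.34% for narrow lower-peak regions, and 0.38% and 0.07% for wider top-peak regions. The next 10 bases held fewer, 37 (4.99%), and the median position was 68 bp. Within width classes the share with the peak in the first 10 bp was 80.9% from 72 to 100 bp, 45.2% from 101 to 150 bp, 8.72% from 151 to 200 bp and 1.83% from 201 to 250 bp. For narrow lower-peak regions it was 8.49%, 2.81%, 2.63% and 2.21% in the same classes, and for peak value 17 it was 23.8%, 3.10%, 0.50% and 0%. Narrow regions with a peak value of 12 or less had 30.8%, 19.1%, 12.4% and 20%, so that in the 2 wider classes their shares were above those of the narrow top-peak regions. How the file places a peak that is tied over several bases is not stated, and no test was made of the peak position.

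**Figure D5:**
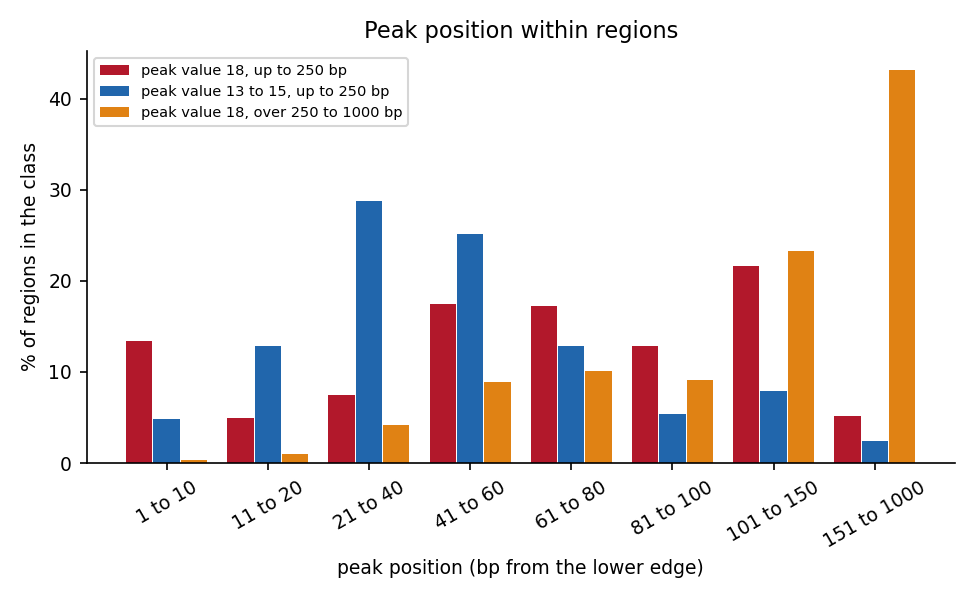
Share of regions, in percent, by peak position in bp from the lower edge, for the 3 classes. Narrow regions of peak value 18 have a larger share at 1 to 10 bp (13.4%) than at 11 to 20 bp (4.99%), which are classes of equal size. The class from 21 to 40 bp (7.42%) covers more bases, so its higher share does not show a rise after 20 bp. Most of these regions have the peak beyond 40 bp, whereas narrow regions of peak value 13 to 15 are most frequent at 21 to 40 bp. The widths of these 2 classes differ as well (median 213 bp against 124 bp), and the bars are not matched for width. From 226 to 250 bp the median peak position is 85 bp at a peak value of 18. It is 55, 66 and 92.5 bp at 13, 14 and 15 in that width class.

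The 99 regions with the peak in the first 10 bp had other values than the remaining 642, which are given without a test. Their median width was 120 bp against 219 bp. Of their neighbours in the list 54.0% had a peak value of 18, against 27.3%. In the outer 25% at each end lay 36.4% of them, against 47.2% of the others. They made up 45 of the 93 regions (48.4%) in the 8 fullest bins, 54 of 639 (8.45%) in all other bins, and 23 of 33 (69.7%) in the 4 groups. The groups differed, with 8 of 11 and 3 of 5 on chromosome 10, 9 of 10 on chromosome 2 and 3 of 7 on chromosome 12. By chromosome their share ran from 1.59% on chromosome 5 to 28.8% on chromosome 10, with 23.0% on chromosome 12. Of the neighbours of narrow lower-peak regions with the peak in the first 10 bp, 23.1% had a peak value of 18, against 22.0% for the rest of that class. Of the neighbours of the 21 wider top-peak regions with the peak in the first 10 bp, 54.8% had a peak value of 18, close to the 54.0% of the narrow ones, but 61.9% of these 21 lay in the outer parts.

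Without any region whose peak lay in the first 10 bp, the remaining narrow top-peak regions were still less frequent in the outer parts. The difference was -11.2 points from narrow lower-peak regions and -9.27 points from wider top-peak regions, below 0 on 12 of 12 for both (two-sided exact sign-flip permutation test, adjusted p = 0.0013 for both). Without the 8 fullest bins it was -9.46 and -7.61 points (exact sign-flip permutation test, adjusted p = 0.0013 and 0.0029). These 2 settings were chosen after the values were seen.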

How the data were processed

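ATAC-seq libraries were read from both ends with 50 bp reads, per the labels' protocols, and aligned with Bowtie2 2.2.3, per the submitters' processing notes. Read filters, the region caller and the pooling of libraries, not given in the sources used here, could change all values. The authors deposited 1 list of regions whose peak value is a score with no stated unit, used as given. It has 0 columns of per-sample values, so depth is unknown.

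Gaps run from edge to edge, and the end of a chromosome's last region stands for its length. Bins of 1 Mb count whole bins only, which hold 732 of the 741 regions. For each chromosome the value of a comparison class was subtracted from that of the narrow top-peak regions (for gaps, the log2 ratio of medians). The 12 differences were tested by a two-sided exact sign-flip permutation test, whose smallest p is 0.000488, with Benjamini-Hochberg adjustment over 8 tests, or over the 4 that remain where only narrow regions were compared (equal widths, peak value 16 to 17). The computation was tested on simulated lists of regions of equal width, each placed in a randomly drawn 1000 bp slot of its own. In some lists the narrow top-peak regions were drawn at random, and in others with a set difference in position and gap. Those lists lacked the clustering of the real list, so they do not show how the p-values behave for it. Regions near each other are not independent. The regions and measures were chosen with earlier results of these data known. Regions were named by a rule (narrowest, farthest, nearest, fullest bins, longest runs, thresholds); the groups, peak position limits and exception at 72 bp were picked after their values were seen. The gene table at hand could not be matched to the build of the list and was not used. Python 3.11.15, NumPy 2.4.6, pandas 2.3.3 and matplotlib 3.10.9 were used.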

Additional observations from a re-analysis of the deposited data

Results flagged for a closer look

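The same peak value and width limit were applied to the sequences that the comparisons do not use. On ChrC and ChrM, by their names the chloroplast and the mitochondrial genome, 36 of 114 regions (31.6%) were narrow and had a peak value of 18, against 2.48% on chromosomes 1 to 12. In 27 of the 36 (75%) the peak lay in the first 10 bp, against 13.4% of the chromosomal ones. The widths differed too, with a median of 169.5 bp (97 bp on ChrC and 171 bp on ChrM) against 213 bp. Among the chromosomal ones the share was 80.9% from 72 to 100 bp, 45.2% from 101 to 150 bp and 8.72% from 151 to 200 bp. The organelle share was not compared at equal widths. ChrC had 10 such regions with a median peak position of 2 bp, and ChrM had 26 with a median of 6 bp. Among the 4 chromosomal groups of at least 5, the medians were 6 and 2 bp on chromosome 10, 1.5 bp on chromosome 2 and 27 bp on chromosome 12. Whether sequence shared with the organelles lies at the chromosomal groups was not tested, since no genome sequence of the file's build was used. ChrSy and ChrUn had 1 such region each.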

How the results depend on the processing

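No paired analysis was possible because the list has no values per library. The list is pooled, names no treatment and gives no depth. The share in the outer parts was lower for the narrow top-peak regions under each alternative run. For the outer 25% the difference ran from -16.9 to -9.46 points against narrow lower-peak and from -14.6 to -7.61 against wider top-peak regions. For the outer 10% it was -6.94 and -4.22 points, and only the latter did not pass. The number of regions per bin was lower throughout, and 2 did not pass (500 kb, -4.33 and -3.83). Against narrow lower-peak and wider top-peak regions, the excess of close neighbours did not pass with a limit of 300 bp (2.81 and 2.07 points), neighbours under 500 bp (1.79 and 3.07) or under 2000 bp (5.12 and 3.23), or without the 8 fullest bins (3.54 and 3.40). It was 4.49 to 7.13 and 4.47 to 7.02 points with each chromosome left out, and did not pass without chromosome 1 (against narrow lower-peak regions only) or 3, 6, 10, 11 or 12 (both). With a limit of 200 bp it was 12.8 and 13.8. The log2 gap ratio passed at 200 bp (-0.87 and -0.90), and against narrow lower-peak regions without 72 bp regions (-0.56), at equal widths (-0.73), against peak value 16 to 17 (-0.65) and after merging regions under 150 bp apart (-0.50). Against wider top-peak regions it passed between peak positions (-0.42) and turned to 0.055 at 300 bp. With chromosomes left out it ran from -0.42 to -0.25 and from -0.36 to -0.19. It then passed without chromosome 2, 5 or 7 against the former and 7 against the latter. There were 303 regions with a limit of 200 bp and 1376 with 300 bp. Causes were not tested.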

Other observations

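The number of bases after the peak was exactly 71 in 59 of the 741 narrow top-peak regions (7.96%), so that the peak began 72 bp before the upper edge, the least width in the list. These 59 include the 24 regions of 72 bp with the peak at the first base, for which the width alone fixes this number. The share was 7.29% in narrow regions of peak value 13 to 15 and 0.39% in wider regions of peak value 18. In all regions of up to 250 bp it was 7.69%, close to that of the narrow top-peak regions.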
